A study of Mus musculus with 24 samples.

Results

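The amino acid transporter families of the mouse lens were followed through glutathione deficiency. They were taken as every gene of the solute carrier families Slc1, Slc3, Slc6, Slc7, Slc36, Slc38 and Slc43 in the count table that had at least 10 counts in at least 4 of the 24 libraries. Of 24415 genes in the table, 60 belonged to these families and 49 met the minimum. They were 7 of 7 Slc1 genes, 2 of 2 Slc3 genes, 13 of 18 Slc6 genes, 12 of 15 Slc7 genes, 3 of 4 Slc36 genes, 9 of 11 Slc38 genes and 3 of 3 Slc43 genes. Slc38a8, with 10 counts or more in 4 libraries, was the member nearest the limit. Slc6a14 reached that count in 1 library and the other 10 excluded genes in none. The families are grouped by descent, so the 49 include carriers of other molecules: Slc6a2 carries noradrenaline, Slc6a3 dopamine, Slc6a8 creatine and Slc43a3 purine bases.

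Glutathione is made from glutamate, cysteine and glycine, and a cell needs transporters for these amino acids or for their precursors. Cystine, the oxidised form of cysteine, enters through the antiporter system xc-, which trades it for internal glutamate. Its light chain Slc7a11 does the transport and its heavy chain Slc3a2 carries it to the membrane. Slc3a2 is also the partner of several other Slc7 light chains. The lens has no blood supply: its epithelium, a single layer on the front surface, faces the aqueous humour, while fiber cells lie behind it and lose their organelles as they mature.

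RNA was sequenced from lens epithelia and from cortical fiber cells of C57BL/6 mice in 6 groups of 4 libraries. Within each tissue the groups were untreated wild type (WT), untreated LEGSKO, which the series calls mildly deficient in glutathione, and LEGSKO given buthionine sulfoximine (BSO), called severely deficient. In LEGSKO mice the lens lacks Gclc, which encodes the catalytic part of the first enzyme of glutathione synthesis, and BSO inhibits this enzyme. The sources used here do not give the promoter behind the deletion, the dose and duration of BSO or the age of the mice, and no group received BSO without the knockout. Whether the 4 libraries of each group are separate animals is not labelled, so p-values measure the spread between libraries, which may be technical.

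Libraries held 19.3 to 46.6 M counts, and LEGSKO+BSO fibers were sequenced most deeply (39.0 to 46.6 M). Levels are given as counts per M (CPM) on 1 scale over all 24 libraries. The total Gclc count was not called in any condition comparison. Its level was 44.8 to 64.3 CPM in WT and 30.8 to 48.3 CPM in LEGSKO epithelia. The sources used here do not say which part of the gene is deleted, so this count does not check the labels. The lens epithelium markers Foxe3 and Cdh1 stood in fibers at 3.38% and 5.80% of their epithelial means. A further marker from that list, Sfrp1, went the other way, at 332%. WT fibers 1 stood apart with 50.1% of its counts in crystallins, where libraries 2 to 4 of that group had 27.6% to 29.6%. LEGSKO fibers 1 had the most photoreceptor RNA among fibers, with a summed retina marker level of 55.7 CPM. LEGSKO+BSO fibers 4 had the most Foxe3 and Cdh1 of its group.

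Upstream sequences of the members that the results turn on are shown because these genes are known targets of stress-responsive factors or were called between conditions. RefSeq promoters of build GRCm38.p6 were found for 33 of the 49 genes, and the 250 bases before each transcription start were searched on both strands. Capitals mark a match to TGATGNAA, the core bound by ATF4 in amino acid response elements, or to TGACNNNGC, the core bound by NRF2 in antioxidant response elements. The 2 motifs share the letters TGA at their start but no printed match overlaps another.
Slc7a11 (chr3:50443614-50443863, minus strand): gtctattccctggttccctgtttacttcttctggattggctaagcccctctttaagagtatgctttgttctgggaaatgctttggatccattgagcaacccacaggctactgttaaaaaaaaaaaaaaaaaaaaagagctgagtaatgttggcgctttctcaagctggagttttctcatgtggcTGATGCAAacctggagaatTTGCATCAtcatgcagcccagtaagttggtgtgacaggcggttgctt
Slc38a2 (chr15:96699729-96699978, minus strand): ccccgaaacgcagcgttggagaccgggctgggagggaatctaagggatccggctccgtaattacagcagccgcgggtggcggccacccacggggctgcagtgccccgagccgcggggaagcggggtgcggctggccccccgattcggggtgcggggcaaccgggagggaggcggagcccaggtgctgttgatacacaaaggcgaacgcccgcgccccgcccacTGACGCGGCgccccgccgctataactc
Slc1a2 (chr2:102706188-102706437, plus strand): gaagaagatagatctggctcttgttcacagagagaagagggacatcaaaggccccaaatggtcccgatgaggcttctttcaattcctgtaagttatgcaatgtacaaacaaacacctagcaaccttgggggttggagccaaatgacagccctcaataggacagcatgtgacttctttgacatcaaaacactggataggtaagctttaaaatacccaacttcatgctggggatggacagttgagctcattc
Slc6a3 (chr13:73536497-73536746, plus strand): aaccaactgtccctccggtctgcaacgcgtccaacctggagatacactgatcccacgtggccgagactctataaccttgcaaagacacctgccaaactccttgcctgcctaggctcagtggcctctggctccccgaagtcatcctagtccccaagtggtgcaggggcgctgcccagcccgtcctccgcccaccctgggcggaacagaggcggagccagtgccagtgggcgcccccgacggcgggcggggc
The Slc7a11 sequence held TGATGNAA in both orientations, starting 66 and 47 bases before the start site. The Slc38a2 sequence held 1 TGACNNNGC match, 27 bases before its start. TGATGNAA occurred in 3.45% of 32851 promoters and TGACNNNGC in 10.2%. The 33 members had 51 promoters, of which 3 held TGATGNAA (genes Slc7a11 and Slc7a7) and 8 held TGACNNNGC (7 genes). The sequences of Slc1a2 and Slc6a3 held neither run of letters. Counts per gene do not show which transcription start was used, and the starts shown for Slc7a11, Slc1a2 and Slc6a3 lie inside the annotated genes.

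In epithelia, transcripts of a few carriers made up most of the total. Summed over the 49 genes the level was 5281 CPM in epithelia and 1835 CPM in fibers, and in each tissue the 5 highest genes held 76.4% of it. In epithelia these were Slc7a2, a carrier of cationic amino acids, at 1053 CPM, Slc38a2, the system A carrier of small neutral amino acids and glutamine, at 859, Slc7a8, the light chain of the large neutral carrier LAT2, at 803, Slc7a11 at 683 and Slc3a2 at 638 (means of 12 libraries). In fibers they were Slc7a2 at 493 CPM, Slc38a2 at 310.2, Slc7a11 at 244, the taurine carrier Slc6a6 at 241 and Slc38a10, a less studied member of its family, at 114. Among all 49, 25 had a mean above 10 CPM in epithelia and 17 did in fibers, and 11 and 16 were below 1 CPM.

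Per kb of exon, which allows levels of different genes to be compared, the epithelial order was Slc3a2 (211 CPM per kb), Slc7a8 (197), Slc38a2 (184), Slc7a2 (122) and Slc7a11 (69.4). In fibers it was Slc38a2 (66.6), Slc7a2 (56.9), Slc6a6 (39.0), Slc7a11 (24.8) and Slc3a2 (21.1). The heavy chain Slc3a2 stood next to Slc7a8, the most abundant of its light chains, in epithelia. In fibers it stood below Slc7a11 and beside Slc7a5 (21.0 CPM per kb), the light chain of LAT1. Exon length is the union over annotated transcripts, so a gene with long exons that the lens does not use is placed too low.

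**Figure D1:**
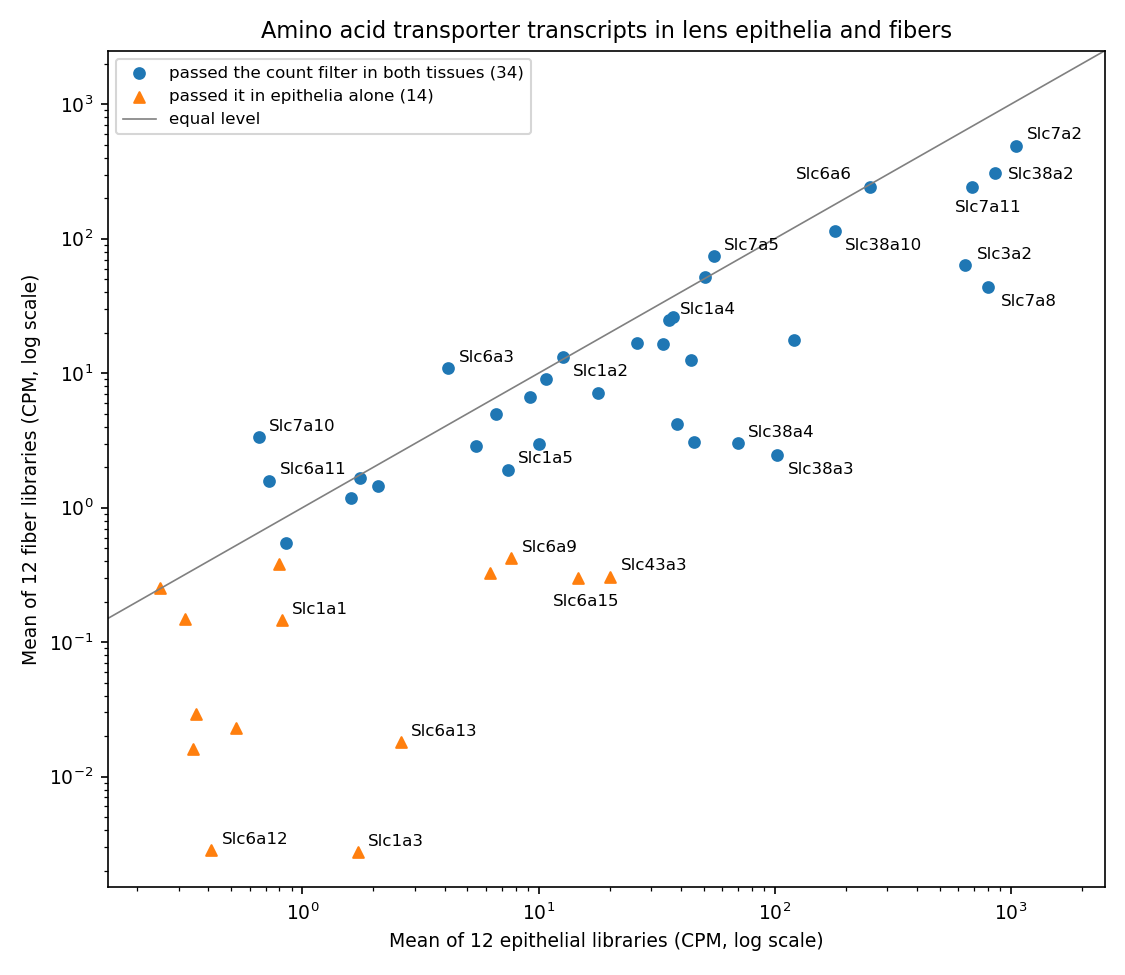
Mean level of 48 of the 49 transporter genes in the 12 epithelial libraries (x axis, CPM) and the 12 fiber libraries (y axis, CPM), both on log scales, with the line of equal level. Most points lie below the line, and Slc7a10, Slc6a3, Slc6a11 and Slc7a5 are farthest above it. Some of the 48 passed the count filter in epithelia alone, which favours a place below the line. Slc1a3 and Slc6a12, the lowest in fibers, are among these.

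Fibers held less RNA than epithelia for most of these transporter genes. This comparison is not one the series lists, and was tested with edgeR over all 24 libraries within each condition. All 49 members passed the filter on low counts in epithelia but 34 passed it in fibers. The 15 that passed in epithelia alone were chosen by their epithelial level, which favours a lower value in fibers, and are left out of the counts that follow. Of the 34, 22 were lower in WT fibers, 23 in LEGSKO fibers and 24 in LEGSKO+BSO fibers, beside 35.6%, 35.8% and 36.3% of the 13148 genes that passed in both tissues. Higher in fibers were 4, 3 and 3 members, beside 41.9%, 41.5% and 43.1% of genes. The median log2 change of the 34 was -0.58, -0.66 and -0.90, against 0.06, 0.06 and 0.07 over all these genes. In all 3 conditions 22 members were lower and 3 were higher, 5 were called in none, and 4 were called in some. The Slc6 genes among the 34 were not part of the 22. Slc6a3 and Slc6a11 were higher in all 3 conditions, and Slc6a6 and Slc6a17 were called in none. Slc6a2 and Slc6a18 were lower in LEGSKO+BSO alone. In these bulk samples, fewer cells of a type and less RNA per cell cannot be told apart.

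Among the 34, the lowest fiber shares of the epithelial level belonged to Slc38a3, Slc38a4, Slc7a8 and Slc43a2, all carriers of neutral amino acids. Slc38a3, a glutamine carrier, was at 89.3 to 102 CPM in WT epithelia and 1.95 to 3.99 CPM in WT fibers (log2 change -5.22 ± 0.33, SE, adjusted p = 2.84e-13, edgeR). Slc38a4, a system A carrier, stood at 4.34% of its epithelial mean in fibers, Slc7a8 at 5.43% and Slc43a2, a carrier of large neutral amino acids, at 6.74%. The 6 epithelial markers stood at 3.38% (Foxe3), 4.25% (Pdgfra), 5.80% (Cdh1), 6.57% (Npnt), 24.7% (Pax6) and 332% (Sfrp1). Slc7a8 fell from 767, 865, 813 and 829.7 CPM in the 4 WT epithelial libraries to 44.1, 57.3, 62.8 and 32.1 CPM in fibers, with no overlap (log2 change -4.06 ± 0.23, adjusted p = 3.77e-14, edgeR). Among members that passed the filter in epithelia alone, Slc43a3 was at 1.53% and Slc6a15, a neutral amino acid carrier of neurons, at 2.02%.

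LEGSKO+BSO fibers 4 had the highest Slc38a3 (5.29 CPM), Slc38a4 (6.28), Slc7a8 (61.0) and Slc3a2 (71.0 CPM) of its group. Of the 6 epithelial markers 4 were also highest in that library: Foxe3 (20.5 CPM), Cdh1 (25.001), Pdgfra (11.8) and Npnt (38.7 CPM). Pax6 was not (109 CPM, against 110.1 in library 1), and Sfrp1 was lowest there. The part of epithelial cells in the fiber level of these genes was not tested.

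**Figure D2:**
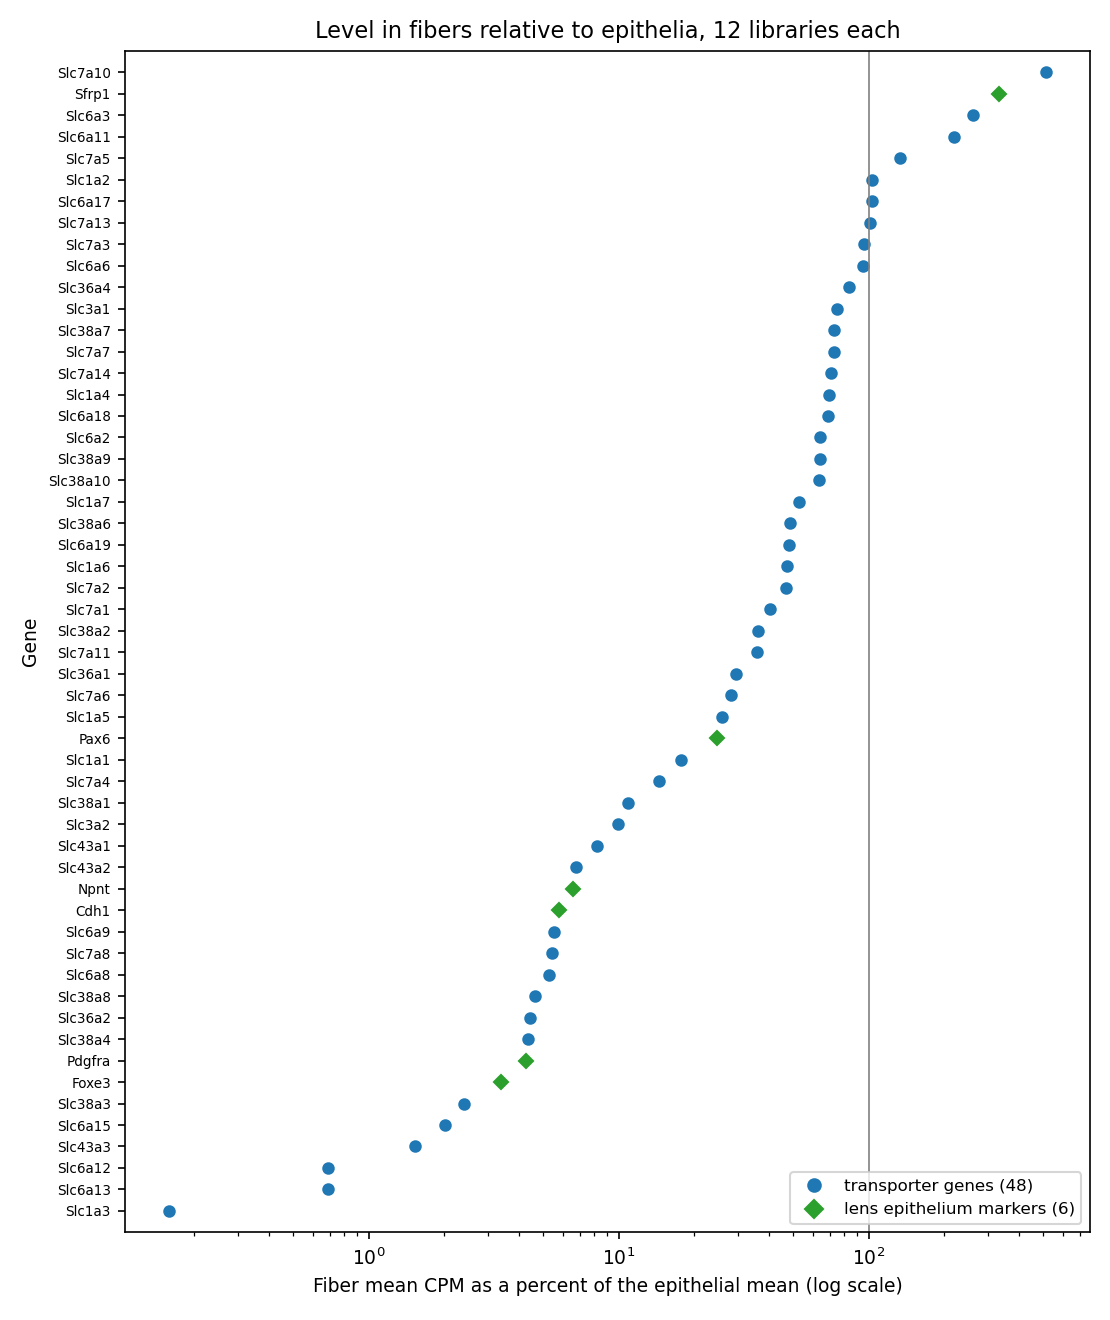
Fiber mean as a percent of the epithelial mean (x axis, log scale) for 48 of the 49 transporter genes (circles) and the 6 lens epithelium markers (diamonds), 12 libraries a tissue. Slc38a4, Slc7a8 and Slc6a9 lie among the markers Foxe3, Pdgfra, Cdh1 and Npnt. The markers Pax6 and Sfrp1 lie higher at 24.7% and 332%, and Slc7a11, Slc38a2 and Slc7a2 lie at 35.7% to 46.8%. The 48 genes include members that passed the count filter in epithelia alone, Slc6a9 among them, which favours a low percent.

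Both chains of the cystine antiporter were lower in fibers. Slc7a11 was at 488, 631, 741 and 617 CPM in WT epithelia and 274, 259, 239.5 and 232 CPM in WT fibers, so every fiber library was lower (log2 change -1.30 ± 0.11, adjusted p = 6.50e-11, edgeR). Slc3a2, its heavy chain, was at 558, 648, 645 and 719 CPM in WT epithelia and 75.9, 66.4, 83.6 and 62.2 CPM in WT fibers. Its log2 change of -3.16 ± 0.13 (adjusted p = 5.00e-17, edgeR) was the more negative of the pair. LEGSKO gave -3.36 for Slc3a2 and -1.55 for Slc7a11, and LEGSKO+BSO gave -3.47 and -1.60. Whether these 2 changes differ was not tested. Slc3a2 was at 9.99% of its epithelial mean in fibers and Slc7a11 at 35.7%.

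Glutamate and cysteine can also enter through the Slc1 family. Slc1a4, which carries alanine, serine and cysteine, was at 33.2, 35.1, 34.2 and 37.8 CPM in WT epithelia and 30.8, 24.6, 22.2 and 26.3 CPM in WT fibers, all below WT epithelia (log2 change -0.44 ± 0.09, adjusted p = 0.000118, edgeR). Slc1a5, known as a glutamine carrier, had a log2 change of -1.85 ± 0.21, from 7.93 ± 0.708 to 2.20 ± 0.803 CPM (SD, n = 4). Slc1a1, the glutamate and cysteine carrier EAAC1, was scarce in both tissues, at 0.278 to 1.86 CPM over the 12 epithelial and 0 to 0.657 CPM over the 12 fiber libraries. The glycine carrier Slc6a9 was at 10.6, 4.78, 10.1 and 4.61 CPM in WT epithelia and 0.736, 0.185, 0.166 and 0.351 CPM in WT fibers. Its reads cannot be separated from the overlapping gene Ccdc24 where the counting used no strand. Slc1a1 and Slc6a9 passed the count filter in epithelia alone, so their lower level in fibers is a description.

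Glutamine is a source of glutamate. Slc38a2, which carries glutamine, was at 668, 956, 868 and 970.5 CPM in WT epithelia and 292, 335, 334 and 295 CPM in WT fibers. All 4 fiber libraries were below all 4 epithelial ones (log2 change -1.46 ± 0.11). Slc38a1, of the same system A, stood at 10.9% in fibers. Further Slc38 genes were nearer equal: the lysosomal carriers Slc38a7 and Slc38a9 and the carrier Slc38a10 stood at 73.1%, 63.8% and 63.5%.

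**Figure D3:**
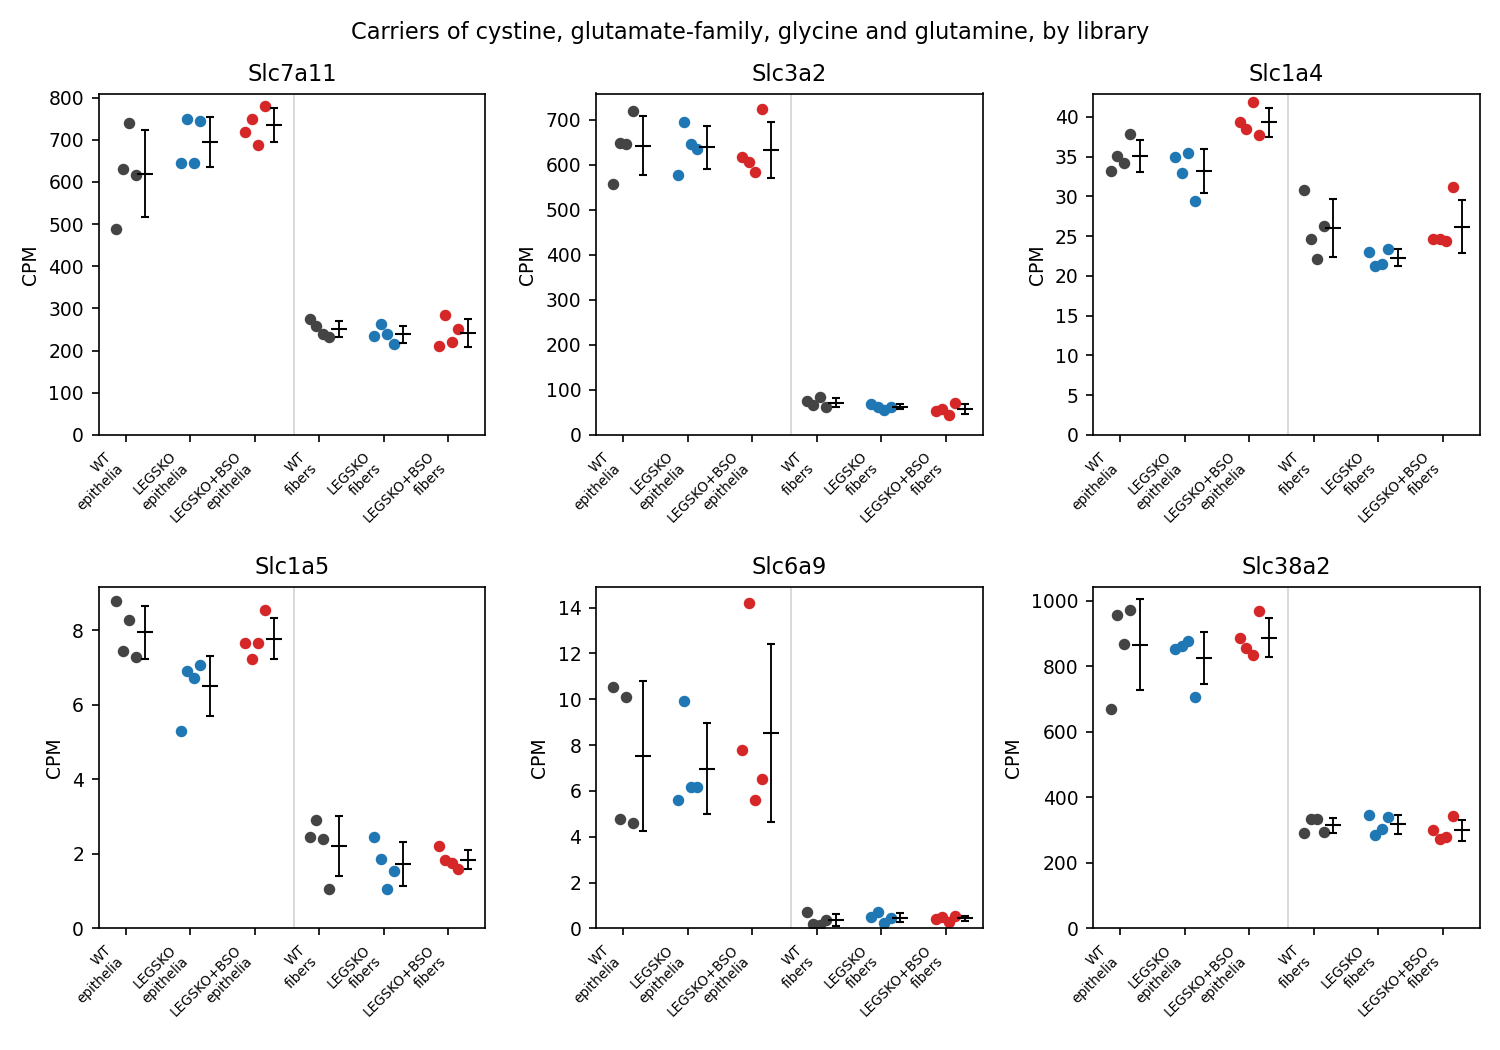
CPM of 6 carriers in each of the 24 libraries (points, y axis from 0), by group, with the mean and SD of 4 libraries beside each group in black. Epithelial points lie above fiber points in every panel except Slc1a4, where the highest fiber point, 31.2 CPM, is above the lowest epithelial one, 29.4 CPM. Slc6a9 passed the count filter in epithelia alone, which favours a lower value in fibers, so its direction is a description. Within a tissue the conditions overlap apart from LEGSKO+BSO above LEGSKO epithelia (Slc1a4, Slc1a5), LEGSKO below WT epithelia (Slc1a5) and LEGSKO+BSO above LEGSKO fibers (Slc1a4).

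The same 3 members were called higher in fibers in every condition. Slc7a10, the light chain of the carrier Asc-1 for small neutral amino acids, rose from 0.455, 0.870, 0.231 and 1.31 CPM in WT epithelia to 2.70, 4.08, 3.33 and 2.50 CPM in WT fibers (4.39-fold, log2 change 2.13 ± 0.34, adjusted p = 3.58e-06, edgeR). Slc6a3, the dopamine carrier, was 1.81-fold higher in WT, 3.83-fold in LEGSKO and 2.58-fold in LEGSKO+BSO fibers. Slc6a11, a carrier of the transmitter GABA, was 2.27-fold higher in WT fibers, from 0.774 ± 0.486 to 1.75 ± 0.218 CPM (SD, n = 4). Its call in LEGSKO+BSO (adjusted p = 0.0202, range over alternatives 0.00677 to 0.0688) was lost without LEGSKO+BSO epithelia 1 or 2 or LEGSKO+BSO fibers 1. Slc7a10 and the gene Lrp3 overlap in the annotation, so its reads are uncertain without strand.

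Slc7a5, the light chain of LAT1, was called higher in fibers in WT alone. It was at 54.5, 52.9, 60.7 and 55.0 CPM in WT epithelia and 151, 71.3, 75.0 and 72.2 CPM in WT fibers (log2 change 0.72 ± 0.16). Library 1, the one with 50.1% crystallin counts, was far above the other 3, and without it the log2 change was 0.36. LEGSKO gave 0.22 ± 0.16 and LEGSKO+BSO 0.26 ± 0.16, neither of them called. The taurine carrier Slc6a6 and the neutral amino acid carrier Slc6a17 stood at 94.9% and 103% of their epithelial means in fibers and were called in no condition, with log2 changes of -0.12 ± 0.17 and 0.00 ± 0.09 in WT. Slc1a2, Slc7a3 and Slc7a7 were likewise called in none.

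The scarcest members in fibers were Slc1a3 and Slc6a12. Slc1a3, the glutamate carrier GLAST of glia, was at 4.68, 0.301, 3.98 and 0.204 CPM in WT epithelia and had 0 counts in the 4 WT fiber libraries, which allows up to 0.0418 CPM (3 counts over the group, counting error only). Slc6a13, a carrier of GABA, also had 0 counts in WT fibers. Slc6a12, a carrier of betaine, was at 0.552, 0.0335, 0.922 and 0 CPM in WT epithelia, with 0 counts in WT fibers. All these genes were highest in WT epithelia 1 and 3, and they passed the filter through epithelia alone, so their direction is a description.

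**Figure D4:**
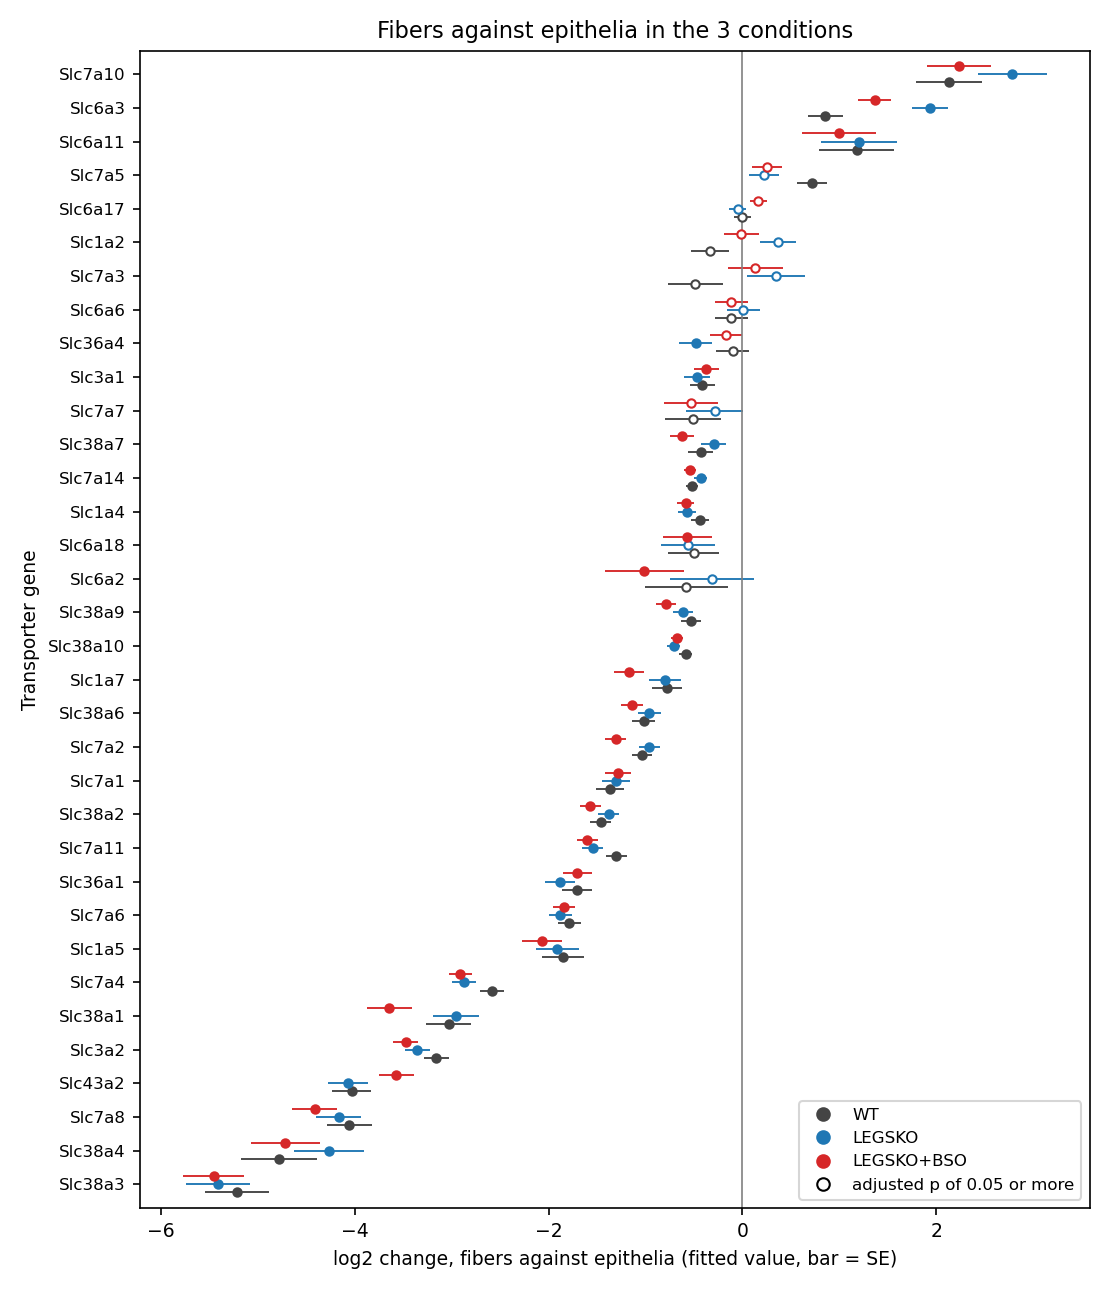
Fitted log2 change between fibers and epithelia (x axis, bars are SE) of the 34 transporter genes that passed the count filter in both tissues, in WT, LEGSKO and LEGSKO+BSO; filled points were called at an adjusted p below 0.05. Filled points left of 0 in all 3 conditions mark 22 genes, with Slc38a3 lowest, and Slc7a10, Slc6a3 and Slc6a11 are at the top.

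Between conditions few of these genes were called, and the calls were in fibers. In LEGSKO against WT fibers 2 of 34 members were higher and 0 lower, where 1.09% and 0.543% of 13436 genes were called higher and lower. In LEGSKO+BSO against WT fibers 2 were higher and 1 lower, where 3.05% and 2.47% of genes were called. Both comparisons use the same 4 WT libraries. The median log2 change of the 34 was -0.05 and -0.07, against -0.01 and -0.01 over all genes.

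Slc1a2, the glutamate carrier GLT-1 that clears glutamate in brain (chr2:102658239-102790784, GRCm38), was at 7.12, 9.73, 6.82 and 8.77 CPM in WT fibers. It was at 18.7, 14.9, 18.1 and 15.1 CPM in LEGSKO fibers and 14.3, 16.5, 12.9 and 14.8 CPM in LEGSKO+BSO fibers. All 8 glutathione-deficient libraries lay above all 4 WT libraries. Slc1a2 rose 2.04-fold in LEGSKO (log2 change 1.03 ± 0.13, SE, adjusted p = 0.000851, edgeR) and 1.79-fold in LEGSKO+BSO (0.84 ± 0.13, adjusted p = 0.00243). Both calls were kept in each alternative, with adjusted p of 5.15e-10 to 0.00663 and 5.83e-07 to 0.0124. Between LEGSKO+BSO and LEGSKO fibers the level overlapped and was not called (log2 change -0.19 ± 0.12, adjusted p = 0.613).

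Slc6a3 (chr13:73536128-73578672) was at 5.64, 6.85, 9.98 and 8.56 CPM in WT fibers. Its level was 12.4, 11.6, 12.8 and 11.7 CPM in LEGSKO and 11.8, 13.1, 13.6 and 12.1 CPM in LEGSKO+BSO fibers. The WT libraries were again all below the others, and their own spread was wider (7.76 ± 1.90 CPM, against 12.1 ± 0.567 and 12.7 ± 0.859, SD, n = 4). Slc6a3 rose 1.55-fold in LEGSKO (adjusted p = 0.0363, edgeR, 0.00227 to 0.128 over alternatives) and 1.62-fold in LEGSKO+BSO (adjusted p = 0.0106, 0.000149 to 0.0367 over alternatives). The call in LEGSKO was lost without WT fibers 2 or 4, without any 1 LEGSKO fiber library, and in 1 fit of all 24 libraries; that in LEGSKO+BSO was kept in each alternative.

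Slc7a2, the carrier of highest CPM in fibers (chr8:40862341-40922070), was at 637, 613, 482 and 560.4 CPM in WT fibers. Its level was 526, 391, 497 and 539 CPM in LEGSKO fibers and 417, 453, 365 and 437 CPM in LEGSKO+BSO fibers. All LEGSKO+BSO libraries were below all WT libraries, and LEGSKO libraries overlapped both. Slc7a2 fell 1.37-fold in LEGSKO+BSO (log2 change -0.46 ± 0.11, adjusted p = 0.0302, edgeR, 0.00231 to 0.101 over alternatives). This call was lost without WT fibers 2 or without LEGSKO+BSO fibers 1, 3 or 4. In LEGSKO the log2 change was -0.23 ± 0.11 (adjusted p = 0.347). Among further carriers of cationic amino acids in this family, Slc7a1 and Slc7a3 were at 6.60 ± 0.977 and 1.74 ± 0.609 CPM in WT fibers. In LEGSKO+BSO fibers they were at 7.51 ± 0.665 and 1.54 ± 0.451 CPM (SD, n = 4), and neither was called.

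**Figure D5:**
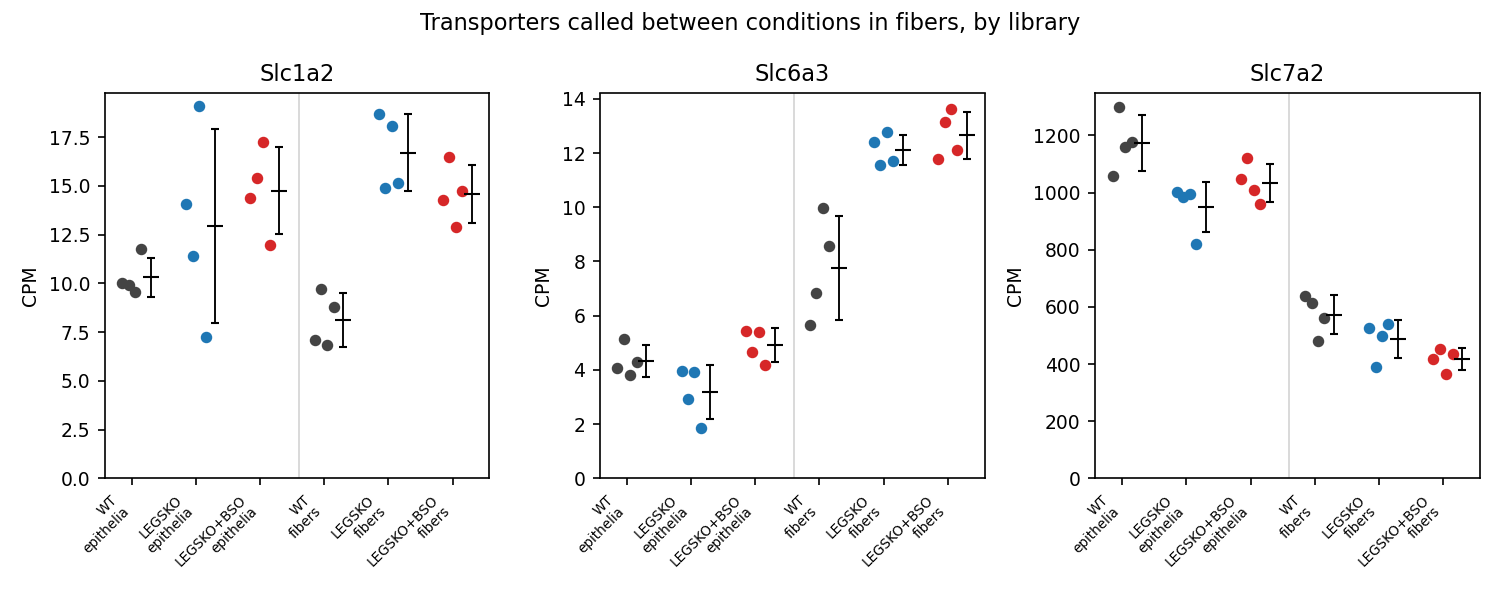
CPM of Slc1a2, Slc6a3 and Slc7a2 in each of the 24 libraries (points, y axis from 0), by group, with the mean and SD of 4 libraries beside each group in black. In fibers the 8 LEGSKO and LEGSKO+BSO points lie above the 4 WT points for Slc1a2 and Slc6a3, and the 4 LEGSKO+BSO points lie below WT for Slc7a2.

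The calls in LEGSKO+BSO fibers depended in number on WT fibers 1. Without that library 5 members were called, adding Slc7a5 (log2 change -0.28) and Slc6a17 (0.30). With WT fibers 1, LEGSKO fibers 1 and LEGSKO+BSO fibers 4 left out together, 7 were called, adding Slc3a2 (-0.44) and Slc7a8 (-0.81) as well. The share of all genes called in these smaller fits is not given, so the higher counts are not shown to be particular to the transporters. With all libraries Slc7a5 was at 151, 71.3, 75.0 and 72.2 CPM in WT and 57.3, 61.2, 61.8 and 59.5 CPM in LEGSKO+BSO fibers, with no overlap and a log2 change of -0.62 ± 0.19 (adjusted p = 0.0674, edgeR). It was called lower by DESeq2 (-0.62), without the count filter, in 1 fit of all libraries and without WT fibers 4. In LEGSKO against WT fibers, leaving out WT fibers 1 added Slc38a10 (log2 change -0.24).

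Summed levels of some marker lists for other cells also differed with condition in fibers, mainly through Acta2 or Lyz2. The muscle and stroma list (11 of 11 genes in the table) summed to 868 to 929 CPM in WT, 1076 to 1222 in LEGSKO and 1033 to 1237 in LEGSKO+BSO fibers. Nearly all of it was Acta2, while Dcn, Lum and Kera were at 0 in all 12 fiber libraries. In WT epithelia the same list summed lower, to 290 to 371 CPM. Immune markers (12 of 12) summed to 1.16 to 1.88 CPM in WT, 1.25 to 1.85 in LEGSKO and 5.19 to 7.33 in LEGSKO+BSO fibers, with Cd3e at 0 throughout. Most of the difference was the lysozyme gene Lyz2, at a mean of 0.660 CPM in WT, 0.652 CPM in LEGSKO and 4.38 CPM in LEGSKO+BSO fibers. The part of other cells in the changes of Slc1a2, Slc6a3 and Slc7a2 was not tested.

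Between LEGSKO+BSO and LEGSKO fibers 0 of 34 members were called by edgeR, where 0.0223% of genes were called higher and 0.00744% lower. By DESeq2 the count was also 0. At an unadjusted p below 0.05 there was 1 member, Slc1a4, where 10.5% of genes passed. It was at 23.0, 21.3, 21.5 and 23.4 CPM in LEGSKO and 24.6, 24.7, 24.4 and 31.2 CPM in LEGSKO+BSO fibers (log2 change 0.23 ± 0.10, adjusted p = 0.441).

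In epithelia no transporter gene was called in any comparison of conditions by edgeR. For LEGSKO against WT 0 of 49 members were higher or lower, where 0.583% and 0.258% of 15089 genes were called, 6 members had an unadjusted p below 0.05 (14.1% of genes), and DESeq2 called 1. For LEGSKO+BSO against WT the counts were 0, where 0.795% and 0.378% of genes were called, 8 at an unadjusted p below 0.05 (14.8% of genes) and 0 by DESeq2. For LEGSKO+BSO against LEGSKO they were 0, where 0.325% and 0.398% of genes were called, 7 (19.3% of genes) and 4. All these percentages are from edgeR. The share of all genes that DESeq2 called is not given, so its counts of 1 and 4 are not a result about these families. The median log2 changes of the 49 were -0.04, 0.07 and 0.12, against -0.01, -0.01 and 0.00 over all genes.

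Neither chain of the cystine antiporter was called in deficient epithelia. Slc7a11 was at 488, 631, 741 and 617 CPM in WT, 644, 749, 645 and 745 CPM in LEGSKO and 719, 749, 687 and 781 CPM in LEGSKO+BSO epithelia. The lowest value was WT library 1, and the groups overlapped. Its log2 change was 0.15 ± 0.10 in LEGSKO (adjusted p = 0.528, edgeR) and 0.25 ± 0.10 in LEGSKO+BSO (adjusted p = 0.262), and in fibers it was -0.08 ± 0.09 and -0.05 ± 0.09. Slc3a2 had log2 changes of -0.03 ± 0.09 and -0.02 ± 0.09 in epithelia. Slc38a2 had -0.09 ± 0.11 and 0.04 ± 0.11.

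In LEGSKO against WT epithelia the members with the smallest p were Slc7a2 and Slc7a3, carriers of cationic amino acids. In LEGSKO+BSO against WT epithelia it was Slc7a3. Slc7a2 was at 1059.6, 1299.9, 1159 and 1176 CPM in WT and 1001, 984, 997 and 820.4 CPM in LEGSKO epithelia, all lower than WT (log2 change -0.32 ± 0.09, adjusted p = 0.0990, edgeR). It was the member that DESeq2 called (-0.32). Slc7a3 was at 1.82, 2.21, 2.16 and 3.62 CPM in WT, 1.61, 1.21, 1.09 and 1.58 CPM in LEGSKO and 1.44, 1.804, 1.38 and 1.04 CPM in LEGSKO+BSO epithelia. Both deficient groups lay below WT, with log2 changes of -0.86 ± 0.26 (adjusted p = 0.132, edgeR) and -0.80 ± 0.26 (0.146). In LEGSKO+BSO against WT epithelia Slc7a2 had a log2 change of -0.18 ± 0.09 (adjusted p = 0.356, edgeR). Slc7a1, also a carrier of cationic amino acids, went the other way, with 0.10 ± 0.13 in LEGSKO and 0.12 ± 0.13 in LEGSKO+BSO epithelia. Markers of the corneal and conjunctival epithelium (8 of 8 in the table) summed to 566 to 1429 CPM in WT, 1549 to 2206 in LEGSKO and 1997 to 2753 in LEGSKO+BSO epithelia, and their part in these differences was not tested. Slc1a2 was at 10.001, 9.94, 9.54 and 11.8 CPM in WT, 14.1, 11.4, 19.1 and 7.28 CPM in LEGSKO and 14.4, 15.4, 17.3 and 11.97 CPM in LEGSKO+BSO epithelia. LEGSKO epithelia spread from the lowest to the highest of these values, and LEGSKO+BSO lay above WT (log2 change 0.52 ± 0.21, adjusted p = 0.278).

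From LEGSKO to LEGSKO+BSO epithelia the members DESeq2 called were all higher: Slc1a4 (log2 change 0.27), Slc1a7 (0.43), a glutamate carrier of retina, Slc7a14 (0.26) and Slc6a3 (0.66). In edgeR their adjusted p was 0.0999, 0.0847, 0.0816 and 0.130. Slc1a4 was at 35.0, 33.0, 35.4 and 29.4 CPM in LEGSKO and 39.3, 38.4, 41.9 and 37.7 CPM in LEGSKO+BSO epithelia, with no overlap. Slc38a1 was called by edgeR against WT and against LEGSKO when LEGSKO+BSO epithelia 2 was left out (log2 change 0.39 and 0.36). So was Slc7a14 against LEGSKO, which brought the counts to 1 and 2, with no share of all genes given for that fit. Slc38a1 was at 43.8, 31.9, 44.7 and 52.0 CPM in the 4 LEGSKO+BSO libraries, of which library 2 was lowest.

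Whether conditions acted alike in both tissues was examined by interaction terms in the fit of 24 libraries. For LEGSKO against WT 0 of 49 members were called by edgeR (0.0321% of 15560 genes higher and 0.0707% lower), 4 had an unadjusted p below 0.05 (9.06% of genes) and DESeq2 called 1. For LEGSKO+BSO against WT the counts were 0 (0.161% and 0.116% of genes), 3 (13.6% of genes) and 0. These percentages are again from edgeR, and no share of all genes is given for DESeq2. Slc6a3 had the smallest p in LEGSKO, with a log2 difference of 1.08 ± 0.26 (adjusted p = 0.107, edgeR), and it was the gene DESeq2 called. It was 4.06, 5.15, 3.81 and 4.29 CPM in WT and 3.98, 2.95, 3.91 and 1.85 CPM in LEGSKO epithelia, where the groups overlapped. For Slc1a2 the difference was 0.71 ± 0.27 in LEGSKO (adjusted p = 0.405) and 0.32 ± 0.27 in LEGSKO+BSO (0.639), so its response was not shown to differ between tissues.

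Genes around the transporters were read from 5 lists. Over all genes, the comparisons with WT called 0.583% to 3.05% higher and 0.258% to 2.47% lower. Amino acid response and synthesis genes, which ATF4 drives in part, had 0 of 39 called in each epithelial comparison. In fibers 36 were tested. In LEGSKO against WT Atf5, a stress-induced transcription factor, was higher (log2 change 0.38 ± 0.09, adjusted p = 0.0404, edgeR). Lower were Cebpb (-2.23 ± 0.52, adjusted p = 0.0453, edgeR) and the proline synthesis enzyme Aldh18a1 (-0.36 ± 0.09, adjusted p = 0.0495, edgeR). Both calls were near the threshold, and neither gene was called in LEGSKO+BSO against WT fibers. In LEGSKO+BSO against WT fibers Atf5 (0.38) and the aminotransferase Got2 (0.22) were higher. Of 20 cysteine supply and glutathione cycle genes tested in fibers, Gclm, the modifier subunit of glutamate-cysteine ligase, was higher in LEGSKO+BSO (0.38 ± 0.08, adjusted p = 0.0148). In LEGSKO fibers 0 of 20 were called, and 0 of 24 in each epithelial comparison.

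Of 21 NRF2 pathway genes, Slc7a11 among them, Osgin1 was higher in LEGSKO epithelia (0.82 ± 0.17, adjusted p = 0.0372). Osgin1 (1.14) and G6pdx (0.47), an enzyme that makes NADPH, were higher in LEGSKO+BSO epithelia, and Gclm, Tkt (0.31) and Srxn1 (0.46) in LEGSKO+BSO fibers. None of the 21 was lower in the comparisons with WT. As 0.258% to 2.47% of all genes were called lower there, this carries little weight in a list of 21. Among carriers of amino acids and peptides outside the 7 families, 26 were tested in epithelia and 23 in fibers. The mitochondrial aspartate-glutamate carrier Slc25a13 was lower in LEGSKO+BSO epithelia (-0.60 ± 0.13, adjusted p = 0.0442). In fibers the mitochondrial carrier Sfxn3 was lower in LEGSKO (-0.86) and LEGSKO+BSO (-0.57), and the serine carrier Sfxn1 was higher in LEGSKO+BSO (0.27). Of 30 nutrient sensing genes, Mtor was higher in LEGSKO+BSO epithelia (0.48 ± 0.09, adjusted p = 0.0210). No gene of the 5 lists was called between LEGSKO+BSO and LEGSKO in either tissue. The list medians lay between -0.04 and 0.14 on the log2 scale in the comparisons with WT and between LEGSKO+BSO and LEGSKO.

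Some scarce members were high in the same epithelial libraries, a set chosen after its values were seen. Slc6a13 was at 5.13, 0.736, 5.91 and 0.0584 CPM in WT epithelia, with libraries 1 and 3 high. It was at 0.284, 5.06, 0.256 and 0.332 CPM in LEGSKO and 1.19, 10.1, 1.25 and 0.961 CPM in LEGSKO+BSO epithelia, with library 2 high in both. Slc1a3 was highest in the same libraries of each group, at 4.68 and 3.98 CPM in WT 1 and 3, 1.34 in LEGSKO 2 and 6.98 CPM in LEGSKO+BSO 2. Slc6a9 was likewise, at 10.6, 10.1, 9.91 and 14.2 CPM. The 12 retina markers did not follow these libraries. Their sums were 295, 76.7, 54.8 and 172 CPM in WT, 161, 35.6, 223 and 18.5 CPM in LEGSKO and 14.4, 31.9, 92.4 and 48.7 CPM in LEGSKO+BSO epithelia, so WT 3 was the lowest of its group and library 2 was below library 3 in both deficient groups. The 12 immune markers did, at 4.90, 2.17, 10.032 and 2.51 CPM in WT epithelia, with libraries 1 and 3 highest. They summed to 2.37, 4.25, 1.51 and 2.57 CPM in LEGSKO and 5.82, 17.0, 2.16 and 7.63 CPM in LEGSKO+BSO epithelia, with library 2 highest in both. The part of other cells in these levels was not tested.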

How the data were processed

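The authors deposited raw read counts, 1 table of 24415 Entrez identifiers by 24 libraries, whose columns were assigned from the sample labels. The submitters' processing notes name CASAVA 1.8, bcl2fastq, TopHat, DESeq and build mm10 (GRCm38) with no role or order. No source used here names the counting tool, annotation, strand setting or kit. Symbols came from a RefSeq gene table for 24334 identifiers; the other 81 held 0.914% of counts and stayed in the tests. Exon lengths are GENCODE unions.

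Tests were two-sided quasi-likelihood F tests of edgeR 4.0.16 (R 4.3.3; TMM scaling, filterByExpr at its default minimum count 10 and total 15, Benjamini-Hochberg adjustment over all genes tested, threshold 0.05). Conditions were compared within a tissue, in a fit of 12 libraries in 3 groups. Tissues and interactions were tested in a fit of 24 libraries in 6 groups. CPM values use TMM factors over all 24 libraries. Alternatives were DESeq2 1.42.0, RLE scaling, no filter, crystallins left out, the replicate number as a block, 1 fit of all libraries and leaving out each library; leaving out 3 fiber libraries together was added after the data were seen. The procedure was tested on simulated counts. No library pair of a group was a duplicate (chi-square per degree of freedom 5.27 to 345).

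Genes named with full values were Slc7a11, Slc3a2, Slc1a1, Slc1a4, Slc1a5, Slc6a9, Slc7a5, Slc38a2 and Slc6a6, members called in a condition comparison or interaction, the 5 of highest mean CPM in each tissue, and up to 6 in each direction with the largest mean tissue change among those called alike in all 3 conditions. Others were named after their values were seen, and a few genes are not reported here. The members and lists were chosen with earlier results of these data known. Without strand information, reads of overlapping genes cannot be told apart (Slc6a9 and Ccdc24, Slc7a10 and Lrp3, Slc3a1 and Prepl, Slc38a6 and Trmt5, Slc7a7 and Oxa1l).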

Additional observations from a re-analysis of the deposited data

Results flagged for a closer look

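In 19 of 126 groups of 4 libraries, 1 library lay far from the other 3 in the level of a named transporter. Chance alone gives about 1 in 20 such groups if values are normal and groups independent, but these groups share libraries. The 126 include groups with all 4 libraries at 0, which could not be flagged (Slc1a3 in WT and LEGSKO fibers, Slc6a13 in WT fibers). Each is given with the range of the other 3 libraries of its group.

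Among epithelia, LEGSKO+BSO 2 was high for Slc6a13 (10.1 CPM, others 0.961 to 1.25) and Slc1a3 (6.98 CPM, others 0.540 to 0.653), and LEGSKO 2 for Slc6a13 (5.06 CPM, others 0.256 to 0.332) and Slc6a9 (9.91 CPM, others 5.62 to 6.18). LEGSKO epithelia 4 was low for Slc7a2 (820.4 CPM, others 984 to 1001) and Slc38a2 (707 CPM, others 851 to 877) and high for Slc6a15 (15.7 CPM, others 13.9 to 14.0). LEGSKO+BSO epithelia 4 was high for Slc38a10 (195 CPM, others 176 to 178) and WT epithelia 1 for Slc6a11 (1.49 CPM, others 0.468 to 0.642).

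Among fibers, WT 1 was high for Slc7a5 (151 CPM, others 71.3 to 75.0), and WT 3 for Slc38a3 (3.99 CPM, others 1.95 to 2.18). LEGSKO fibers 1 was high for Slc38a3 (4.66 CPM, others 1.58 to 2.04) and Slc38a10 (116 CPM, others 103 to 104), LEGSKO fibers 2 low for Slc6a6 (190.0 CPM, others 243 to 251) and LEGSKO fibers 3 low for Slc7a8 (35.1 CPM, others 46.7 to 48.7). LEGSKO+BSO fibers 4 was high for Slc1a4 (31.2 CPM, others 24.4 to 24.7) and Slc7a10 (4.06 CPM, others 3.31 to 3.43). In 2 fiber groups 1 library held the counts of a gene that was at 0 in the others: Slc1a3 in LEGSKO+BSO 3 (0.0329 CPM, 1 count) and Slc6a13 in LEGSKO 1 (0.114 CPM, 2 counts). With the others at 0 such a library stands apart by construction, so these carry no weight against the chance share.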

How the results depend on the processing

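Among named genes called by edgeR with all libraries, none changed direction under any alternative that tested it. Changes that were not called were not checked for direction. By DESeq2 1 member was called in LEGSKO against WT epithelia, 4 in LEGSKO+BSO against LEGSKO epithelia and 1 in the difference between tissues for LEGSKO. In 1 fit of all libraries 1 member was called in LEGSKO against WT fibers. With the 3 fiber libraries left out, chosen after seeing the data, 7 were called in LEGSKO+BSO against WT fibers. Leaving out 1 library at a time gave 0 to 1 members in LEGSKO+BSO against WT epithelia, 0 to 2 in LEGSKO+BSO against LEGSKO epithelia, 1 to 3 in LEGSKO against WT fibers and 2 to 5 in LEGSKO+BSO against WT fibers. These fits have fewer libraries, and the cause of the other moves was not tested. Shares of all genes called under these alternatives are not given, so no change in count is shown to be particular to the transporters. The other 64 of 69 counts under a change of method and 95 of 104 under leaving out a library stayed within 1.5 times. Of single genes, the calls lost were those of Slc6a3 and Slc7a2 named above, Slc6a11 in LEGSKO+BSO (highest adjusted p = 0.0688) and Slc6a13 between tissues in LEGSKO without LEGSKO epithelia 2 (0.165).

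The labels do not say whether replicate numbers pair libraries. The lowest correlation of same-numbered deviations was -0.29, in LEGSKO against WT epithelia, and in no comparison did all 4 pairs exceed 0.1. With the replicate block, calls were 2 and 3 in fibers against WT as before and 0 in each epithelial comparison. Between tissues in LEGSKO 36 of the 49 members were called, against 37 without the block. Over all genes, 5724 of 15560 were called higher and 6065 lower in that contrast without the block. The 49 include members that passed the filter in epithelia alone, so these counts are not a result about the transporters. In the tissue contrasts 4 of 4 libraries correlated best with their own number in LEGSKO+BSO, 3 of 4 in WT and 0 of 4 in LEGSKO. This is a hint from the data and not the design, and it does not settle whether the tissues were paired. Under RLE scaling the median of all genes between tissues lay at -0.16 to -0.14, against -0.09 to -0.08 with TMM. Members near 1 CPM rest on few counts, and small changes in them were not detectable at this depth.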
